A study of Rattus norvegicus with 12 samples.

Results

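The data described here are those of 10 genes of WNT signalling in rat knee articular cartilage, namely the ligand gene Wnt5a, the secreted antagonist genes Frzb, Sfrp1, Sfrp2 and Dkk3, the intracellular genes Ctnnb1 and Axin2, the transcription factor genes Lef1 and Tcf7l2, and the WNT-induced gene Ccn4. They were chosen by name, with earlier results of these data known. Every probe set whose only symbol in the annotation of the array is that of a member was read, which gave 25 of the 31099 probe sets on the array. Of these 25, 11 probe sets of 7 genes exceeded a log2 value of 4 in at least 3 of the 12 arrays and were tested. The probe sets of Wnt5a, Sfrp1 and Lef1 did not pass this filter and are given as levels with no test.

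In the study, rats had knee surgery to bring about osteoarthritis (OA) or a sham operation, and total RNA of the homogenized cartilage was hybridized to 1-colour Affymetrix arrays. The groups were OA at 2 weeks, sham at 2 weeks, OA at 8 weeks and sham at 8 weeks after surgery, with 3 arrays each. Strain, sex, age and the number of animals behind an array are not given in the sources used here, so the p-values measure the spread between arrays, which may be technical. The sham animals had surgery too, and no cartilage without surgery is among the samples analysed here.

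WNT proteins are secreted signals. On the canonical route, a WNT bound to a Frizzled receptor and an LRP co-receptor halts the breakdown of beta-catenin, which then enters the nucleus and works with TCF and LEF proteins on target genes. Secreted antagonists bind the WNT protein or its co-receptor outside the cell. In joint cartilage the pathway is studied because both too much and too little beta-catenin activity harm chondrocytes in mice, and because FRZB was first isolated from cartilage.

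Axin2 is the feedback gene of the pathway, and the bases before its start are shown because they carry the kind of site at which TCF and LEF proteins bind. The sequence runs 5′ to 3′ over the 250 bases before the transcript start used in the RefSeq table of build GRCr8, chr10:94398535-94398784 on the plus strand. This start lies inside the annotated extent of Axin2, which reaches from 94393379 to 94426579 on chromosome 10. Capitals mark matches to the motif, which is CTTTG followed by either an A or a T and then an A or a T (the letters CTTTGAA in its first form), searched on both strands.

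Axin2: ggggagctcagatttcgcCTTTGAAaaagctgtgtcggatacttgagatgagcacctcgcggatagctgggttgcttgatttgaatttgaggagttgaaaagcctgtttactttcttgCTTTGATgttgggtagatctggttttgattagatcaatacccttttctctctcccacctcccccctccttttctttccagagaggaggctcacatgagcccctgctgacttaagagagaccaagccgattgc

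The window held 2 matches, CTTTGAA from 232 bases and CTTTGAT from 132 bases before the start, both on the plus strand and not overlapping. Of 33469 windows of the same length in the table, 14.9% held at least 1 match and 1.73% held at least 2. Windows were present for 7 members, and the windows of Wnt5a, Frzb, Sfrp2, Ctnnb1, Lef1 and Tcf7l2 held no match. These are matches of letters only, and binding was not measured.

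Ccn4, which encodes a secreted matricellular protein induced by WNT signalling, was lower in OA cartilage at 8 weeks. The gene lies at chr7:100534578-100566287 in GRCr8. At 8 weeks its log2 values were 8.78, 8.91 and 9.07 in the OA arrays, against 10.32, 10.03 and 10.58 in the sham arrays. The groups did not overlap. At 2 weeks they were 9.94, 10.11 and 10.81 in the OA arrays, against 10.20, 10.38 and 10.60 in the sham arrays, and the sham values lay inside the OA range. Of the 4 group means, those of OA at 2 weeks (10.28 ± 0.46), sham at 2 weeks (10.39 ± 0.20) and sham at 8 weeks (10.31 ± 0.27) lay within their SDs of each other, and OA at 8 weeks (8.92 ± 0.15, SD, n = 3 each) lay below all of them.

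In limma's fit over the 15934 kept probe sets, Ccn4 fell by 1.39 on the log2 scale in OA at 8 weeks (SE 0.23, 95% interval from -1.89 to -0.89, 2.62-fold lower, Benjamini-Hochberg adjusted p = 0.0133). At 2 weeks it differed by -0.11 ± 0.23 (adjusted p = 1). The OA effect at 8 weeks minus that at 2 weeks was -1.28 ± 0.32, which did not pass (unadjusted p = 0.00248, adjusted p = 0.19 in limma), and 0 of 7 members passed that test, where 0.162% of all genes did. Averaged over both times the difference was -0.75 ± 0.16 (adjusted p = 0.0965 in limma), where 0 of 7 members and 0.443% of all genes were called. With the replicate number as a block within each time, chosen after seeing the data, the adjusted p in limma was 0.0468. It ranged from 0.0298 to 0.445 over all alternatives, and 2 of the 10 that left out no replicate called this difference. The 8-week call of Ccn4 ended with only the 6 arrays compared in the fit (adjusted p = 0.0672), without sham 8 weeks replicate 3 (0.0632) and with the level of skeletal muscle markers as a covariate (-1.22, adjusted p = 0.176), a level given below for each group. Over all alternatives the adjusted p ranged from 0.00566 to 0.176.

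Ccn4 was the only member called at 8 weeks, 1 of 7 tested genes, against 3.48% of the 9247 genes called in that comparison and 2.45% called lower. The members were chosen with earlier results of these data known, so these shares are a description and not a test. At 2 weeks 0 of 7 passed limma, and 0 of 7 had an unadjusted p under 0.05, where 0% of all genes were called. The 7 genes had a median difference of -0.12 at 8 weeks, beside -0.03 over all 9247 genes. The 3 OA and 3 sham arrays at 8 weeks did not overlap for Ccn4 and Dkk3, 2 of 7 genes, and for 25.5% of all genes.

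**Figure D1:**
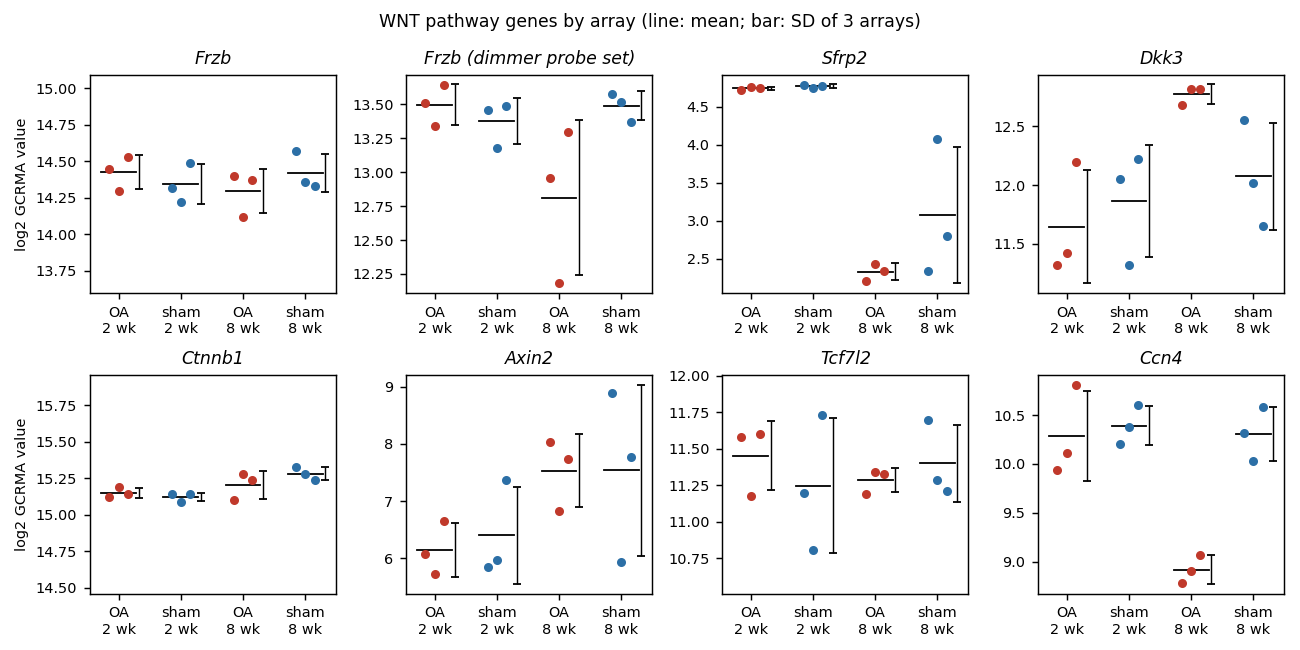
Log2 GCRMA values (vertical axes, a separate range for each panel) of the 7 tested genes and the dimmer probe set of Frzb in the 12 arrays, with OA in red and sham in blue at 2 and at 8 weeks (wk). The line is the mean and the bar beside it the SD of 3 arrays. The 3 OA arrays of Ccn4 at 8 weeks sit between 8.78 and 9.07, below all other arrays of that gene.

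Markers of other tissues moved in the same comparison as Ccn4. At 8 weeks, 8 of 9 measured osteoblast and osteocyte markers were lower in OA and 3 passed the test. The mean log2 level of this list ranged from 10.79 to 11.56 in the OA arrays and from 12.10 to 12.44 in the sham arrays. All 5 measured osteoclast markers passed the test as lower (list level from 9.48 to 10.82 in OA and from 12.53 to 12.87 in sham), and all 15 measured macrophage markers were lower, 4 of them past the test (6.51 to 6.66 in OA, 7.48 to 10.22 in sham). The osteoblast transcription factor genes Sp7 and Runx2 did not pass the filter on low values. Of 15 measured skeletal muscle markers, 14 were higher in OA and 0 passed, with list levels from 10.05 to 14.44 in OA and from 5.90 to 10.58 in sham. Of 6 measured endothelial markers 6 were lower and 0 passed, and of 7 measured synovial and tendon markers 4 were lower and 1 passed. Of 12 measured cartilage markers, which include Col2a1 and Acan, 3 passed as lower, with list levels from 13.68 to 13.97 in OA and from 14.05 to 14.32 in sham. At 2 weeks 0 markers of any of these lists passed. Of these lists, only the muscle marker level was used as a covariate, with Ccn4 at -1.22 (adjusted p = 0.176 in limma). The part of these tissues in the Ccn4 result was otherwise not tested. In RNA of a whole tissue, fewer cells of a type and less RNA per cell cannot be told apart.

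The genes whose values followed Ccn4 most closely were Rdh11 (Pearson's r = 0.96), the osteocyte gene Phex (0.958), which regulates phosphate handling in bone, and Spon2 (0.954), an extracellular matrix protein gene. These correlations are over the 12 arrays after the mean of each time was subtracted, and serve as a description, since the OA and sham arrays at 8 weeks form separate clusters for these genes. At 8 weeks Rdh11 averaged 8.30 in the OA arrays and 9.31 in the sham arrays. Phex averaged 7.11 in OA, against 9.64 in sham, and Spon2 averaged 8.69 in OA, against 11.18 in sham. Each of them passed limma at 8 weeks (Rdh11 -1.01 ± 0.13, adjusted p = 0.00575; Phex -2.53 ± 0.38, 0.011; Spon2 -2.49 ± 0.39, 0.0126). Phex belongs to the osteoblast and osteocyte list above.

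Among the secreted antagonists, Frzb (chr3:85739162-85772168 in GRCr8), which encodes a soluble Frizzled-like protein of chondrocytes, was measured by 2 kept probe sets that differed in size of change. The probe set with the higher mean read 14.40, 14.12 and 14.37 in OA and 14.57, 14.36 and 14.33 in sham at 8 weeks, so the groups overlapped (-0.12 ± 0.12, adjusted p = 0.59 in limma, 95% interval from -0.38 to 0.14). The dimmer probe set read 12.96, 12.18 and 13.30 in OA and 13.58, 13.52 and 13.37 in sham at 8 weeks, with every OA array below every sham array, as was one group against the other for 25.1% of the kept probe sets. Its difference of -0.68 ± 0.24 had an unadjusted p of 0.0176 and an adjusted p of 0.146 in limma, and did not pass. Without OA 8 weeks replicate 2, its lowest array, that difference was -0.36. At 2 weeks the 2 probe sets differed by 0.08 ± 0.12 and 0.12 ± 0.24, and neither passed.

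Dkk3 (chr1:175672834-175715867), a member of the Dickkopf family of secreted proteins whose effect on WNT signalling depends on the cell, stood on the other side. Its main probe set read 12.68, 12.82 and 12.82 in OA and 12.55, 12.02 and 11.65 in sham at 8 weeks. The OA arrays lay close together and above all 3 sham arrays. The difference of 0.70 ± 0.31 had a 95% interval from 0.02 to 1.39 and did not pass (unadjusted p = 0.0448, adjusted p = 0.22 in limma). At 2 weeks it read 11.32, 11.42 and 12.20 in OA, against 12.05, 11.32 and 12.22 in sham, which overlapped (-0.22 ± 0.31, adjusted p = 1). The other 3 probe sets of Dkk3 read between 2.59 and 3.06 in all arrays and were left out by the filter.

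Sfrp2 (chr2:171387536-171395081), which encodes a secreted Frizzled-related protein, passed the filter through its 2-week arrays. At 8 weeks it read 2.21, 2.43 and 2.34 in OA and 2.34, 4.08 and 2.80 in sham, and the 2 groups overlapped at the low end (-0.75 ± 0.34, adjusted p = 0.239 in limma). Without sham 8 weeks replicate 2, the array at 4.08, the difference was -0.24, and with the muscle marker covariate it was -0.09. At 2 weeks all 6 arrays read between 4.72 and 4.79 (-0.03 ± 0.34, adjusted p = 1). These values lie around or under a log2 value of 4, where GCRMA compresses differences and no size can be read. Sfrp1, another gene of that family (chr16:75278325-75316736), read at most 4.07 in its 3 probe sets, and its level in these samples is known only as at or under that value.

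**Figure D2:**
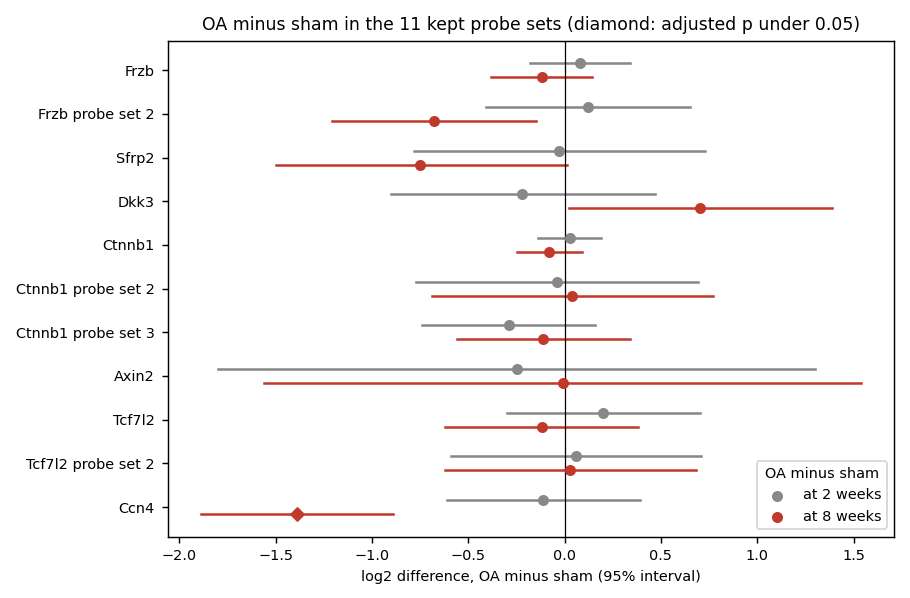
Log2 differences, OA minus sham (horizontal axis), with 95% intervals from limma for the 11 kept probe sets at 2 weeks (grey) and 8 weeks (red). The diamond of Ccn4 at 8 weeks, at -1.39, marks the probe set that passed, while the circles did not.

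The ligand gene Wnt5a (chr16:3702300-3724860), known for beta-catenin-independent signalling, was measured by 1 probe set that read between 2.52 and 2.66 in all 12 arrays. The 2 probe sets of Lef1 (chr2:222340541-222453931), a transcription factor that partners beta-catenin, read between 2.04 and 2.45. Both genes lay under the filter in every group, so neither a level nor a change can be given for them, and such a reading does not show that the RNA was absent.

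Ctnnb1 (chr8:129517576-129544661), which encodes beta-catenin, differed little between OA and sham. Its main probe set read 15.10, 15.28 and 15.24 in OA and 15.33, 15.28 and 15.24 in sham at 8 weeks, with a difference of -0.08 ± 0.08 (95% interval from -0.25 to 0.09, adjusted p = 0.588 in limma). At 2 weeks it read 15.12, 15.19 and 15.14 in OA and 15.14, 15.09 and 15.14 in sham (0.03 ± 0.08). These values lie near the top of the range of the arrays, where a difference may be compressed. The second kept probe set differed by 0.04 ± 0.33 and the third by -0.11 ± 0.20 at 8 weeks, and neither passed. The abundance of beta-catenin protein, through which the pathway acts, was not measured.

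Axin2 encodes a scaffold of the complex that breaks down beta-catenin and is itself switched on by the pathway, which makes it a common readout of canonical signalling. It read 8.04, 6.82 and 7.74 in OA and 8.90, 5.93 and 7.78 in sham at 8 weeks. The sham arrays held both the highest and the lowest of these values, and the means were 7.53 ± 0.64 in OA and 7.54 ± 1.50 in sham (SD, n = 3 each). The difference of -0.01 ± 0.70 has a 95% interval, without adjustment for the number of tests, from -1.56 to 1.54. Changes of Axin2 up to about that size in either direction are thus not excluded at this spread. With the muscle marker covariate the difference was -1.12 (adjusted p = 0.678). At 2 weeks it read 6.07, 5.72 and 6.65 in OA and 5.85, 5.97 and 7.37 in sham (-0.25 ± 0.70, adjusted p = 1 in limma). Tcf7l2 (chr1:264791335-264984225), which encodes the TCF4 transcription factor, read 11.19, 11.34 and 11.33 in OA and 11.70, 11.29 and 11.21 in sham at 8 weeks (-0.12 ± 0.22, adjusted p = 0.82). Its second kept probe set differed by 0.03 ± 0.29, and its other 3 probe sets read at most 3.73.

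After the mean of each time was subtracted, the 21 pairs of the 7 genes had correlations over 12 arrays from -0.659 (Sfrp2 with Axin2) to 0.743 (Frzb with Tcf7l2). Frzb and Axin2 correlated at 0.656, and Axin2 and Tcf7l2 at 0.53. In the pair at the low end, 1 array of Sfrp2 at 8 weeks stands apart at 4.08. Ccn4 correlated with Axin2 at 0.239 and with Frzb at 0.425. The arrays share their normalization, and these values are a description. On the same measure, the genes nearest to a member were Flvcr2 for Frzb (r = 0.941), Arvcf for Sfrp2 (0.991), Tnrc6a for Dkk3 (0.934), Plod2, a collagen lysyl hydroxylase gene, for Ctnnb1 (0.958), Mrgbp for Axin2 (0.962) and Lemd3 for Tcf7l2 (0.952). For Sfrp2 the value is weighted by the same array at 4.08, and Arvcf averaged only 2.63 in OA and 2.88 in sham at 8 weeks. No gene of the pathway lists was among the 3 nearest to any member.

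Of 112 other genes of the pathway, listed by role, 87 had a probe set of their own and 54 passed the filter. In OA against sham, 0 of the 54 passed limma at 8 weeks in the reported fit, where 3.48% of all genes did, and 0 passed at 2 weeks. At an unadjusted p under 0.05 there were 3 at 8 weeks and 0 at 2 weeks. Their median difference at 8 weeks was -0.03, equal to that of all genes to 2 decimals.

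The gene closest to the threshold was Ccn6, which belongs to the same CCN family as Ccn4 and encodes another secreted matricellular protein. It read 12.23, 11.89 and 12.62 in OA and 12.87, 12.88 and 13.04 in sham at 8 weeks. Every OA array lay below the sham arrays, and 25.5% of all genes likewise had no overlap of the groups in that comparison. The difference of Ccn6 was -0.68 ± 0.16 (unadjusted p = 0.00188, adjusted p = 0.053 in limma). It passed with the replicate number as a block within each time, chosen after seeing the data (adjusted p = 0.0333 in limma). Over all alternatives the adjusted p ranged from 0.0149 to 0.393. At 2 weeks Ccn6 read 13.01, 12.97 and 13.21 in OA and 13.04, 13.08 and 13.23 in sham (-0.05 ± 0.16). Next was Wls, which encodes the carrier that brings WNT proteins to the cell surface. It read 12.06, 11.90 and 11.74 in OA and 12.17, 12.19 and 12.41 in sham at 8 weeks, again without overlap (-0.35 ± 0.12, adjusted p = 0.126), and differed by -0.01 ± 0.12 at 2 weeks. At 2 weeks the smallest unadjusted p-values were those of the co-repressor gene Tle4 (0.40 ± 0.20, unadjusted p = 0.0674 in limma) and of Prdm1 (-0.30 ± 0.17, 0.106), with an adjusted p of 1 for both.

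By role, the 7 measured genes listed as canonical target and feedback genes had a median of -0.47 at 8 weeks, with 5 of 7 lower and 0 called. The list was made by name, and whether its genes follow WNT signalling in this cartilage was not tested. The median over all genes was -0.03. Among the lower ones, Ccn5 (-0.45 ± 1.24) and Cd44 (-0.77 ± 0.96) had standard errors larger than their differences, while Jun and Ccnd1 were higher. This list leaves out the members, Axin2 (-0.01) and Ccn4 (-1.39) among them. A change of canonical signalling as such was not tested. Of the 7 receptors and co-receptors 6 were lower (median -0.06). Of the 12 genes of the cytoplasmic complex 3 were lower (median 0.03), of the 11 nuclear factors 7 (median -0.02) and of the 7 planar cell polarity genes 5 (median -0.14). Only 2 of 18 other WNT ligand genes passed the filter, Wnt2b and Wnt16, with 12 of 18 on the array. In the remaining roles, 3 other secreted antagonists, 3 genes of the R-spondin group and 2 of ligand secretion were measured, with medians of -0.11, 0.05 and -0.29.

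**Figure D3:**
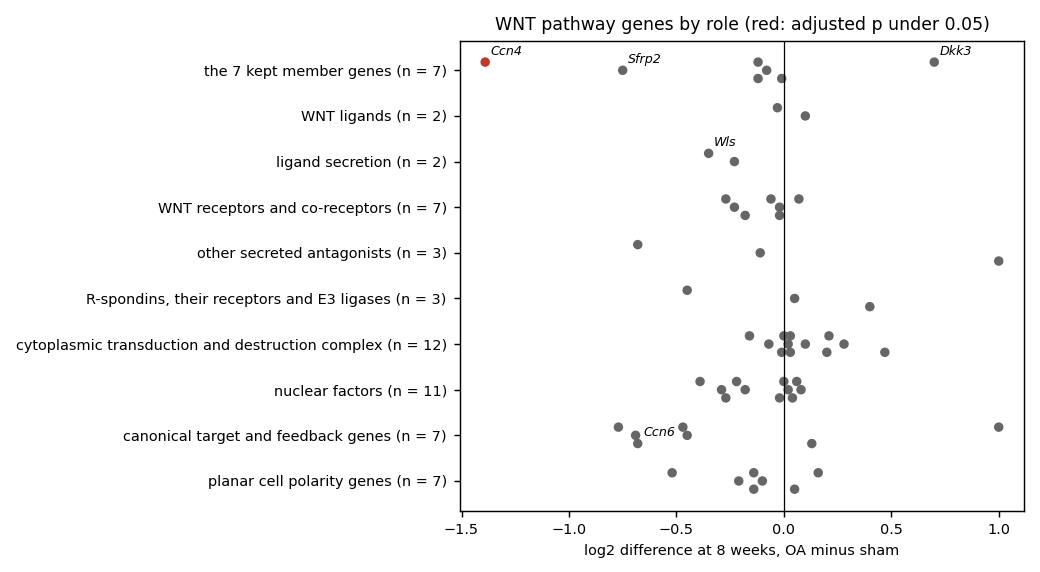
Log2 difference at 8 weeks, OA minus sham (horizontal axis), of the 7 tested member genes and of the 54 other measured genes of the pathway by role, each point a gene and the small vertical offsets only for legibility. Ccn4 at -1.39 is the point that passed. Ccn6 (-0.68) and Wls (-0.35) had the smallest p-values of the others.

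The comparisons of 8 with 2 weeks carry a limit of their own. Left out by the filter on low values were 15108 probe sets, which read near the floor. In 27.5% of them, all 6 arrays of one time lay on one side of the 6 of the other. OA and sham, with 3 arrays each, did not overlap in 0.702% of them at 2 weeks and in 2.8% at 8 weeks. OA was the higher group in 0.146% and the lower in 0.556% at 2 weeks, and the higher in 2.5% and the lower in 0.298% at 8 weeks. Splits of 6 and of 3 arrays are unlike measures, so the shares by time and by OA are not directly comparable. Of the 15934 kept probe sets, 20.7% were split by time, and OA and sham did not overlap in 5.38% at 2 weeks and 25.1% at 8 weeks. Among the left-out probe sets, Sfrp1 is an example. Its main probe set read 3.94, 4.07 and 3.97 in OA and 4.02, 3.95 and 3.91 in sham at 8 weeks, but 2.93, 2.96 and 2.94 in OA and 2.97, 2.95 and 2.95 in sham at 2 weeks. The step of about 1 between the times is many times the spread within either of them. What else differed between the 2-week and the 8-week arrays besides time is not given in the sources used here, and cannot be told apart from time.

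Within OA, 3 of the 7 tested members were called between the times, where 29.3% of all genes were, and 4 of the 11 probe sets, where 34.1% of all kept probe sets were. Ccn4 was lower at 8 than at 2 weeks (-1.36 ± 0.23, adjusted p = 0.00103 in limma), while Dkk3 was higher (1.13 ± 0.31, 0.017). Dkk3 did not pass without OA 2 weeks replicate 1 or 2 (adjusted p = 0.0619 and 0.0611). The other called member was Sfrp2, which passed the filter on low values through its 2-week arrays and read near the floor at 8 weeks, so that its call is no independent result and no size is given. Within sham, 1 of 7 was called, again Sfrp2 and under the same limit, where 14.8% of all genes were, and 2 of 11 probe sets, where 18.7% were. Ccn4 and Dkk3 differed by -0.08 ± 0.23 and 0.21 ± 0.31 within sham and did not pass, and the test of the difference between OA and sham in this respect is the one given above for Ccn4 (adjusted p = 0.19) and 0.92 ± 0.43 for Dkk3 (adjusted p = 0.471). The third probe set of Ctnnb1 was higher at 8 weeks within OA (1.12 ± 0.20, adjusted p = 0.00174) and within sham (0.94 ± 0.20, 0.00708). It read from 4.44 to 5.11 in the 2-week arrays, close to the filter, so these sizes are uncertain. The main probe set differed by 0.05 ± 0.08 and 0.16 ± 0.08 in the same order. The second probe set differed the other way, by -0.45 ± 0.33 and -0.54 ± 0.33, and passed in neither. Axin2 was higher by 1.38 ± 0.70 within OA and by 1.14 ± 0.70 within sham, and passed in neither (adjusted p = 0.156 and 0.365).

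Of the 54 other genes of the pathway, 8 were called higher and 5 lower at 8 weeks within OA, which is 24.1%, against 29.3% of all genes. Within sham 6 were called higher and 2 lower, which is 14.8%, the same share as over all genes. Those with the smallest p-values moved by like amounts in both. The casein kinase gene Csnk1e differed by 0.96 ± 0.06 and 0.91 ± 0.06, and its 6 arrays of a time ranged from 6.73 to 6.80 at 8 weeks and from 5.80 to 5.85 at 2 weeks. The Frizzled receptor gene Fzd1 (1.65 ± 0.14 and 1.61 ± 0.14) was called higher in both. The Tle family gene Tle5 read from 5.39 to 5.99 in the 8-week arrays and from 3.68 to 4.02 in the 2-week arrays, and so passed the filter through the 8-week arrays. The beta-catenin cofactor gene Bcl9 read from 5.42 to 5.69 at 8 weeks and at most 4.04 at 2 weeks, at the edge of the filter. Both were called higher within OA and within sham, but with 1 side near the floor no size or independent result is drawn from them. The co-repressor gene Tle3 (-0.61 ± 0.07 and -0.60 ± 0.07) and the transcription factor gene Tcf7 (-2.05 ± 0.28 and -1.86 ± 0.28) were called lower in both. Tcf7 read from 4.68 to 5.81 in the 8-week arrays, close to the filter, so its sizes are uncertain. Ccn6 (-0.82 ± 0.16, adjusted p = 0.00326) and Wls (-0.40 ± 0.12, 0.0242) were called lower within OA, and differed by -0.19 ± 0.16 and -0.05 ± 0.12 within sham without passing. The call of Wls ended with only the arrays compared (adjusted p = 0.0734) and without OA 2 weeks replicate 1 (0.0828), OA 2 weeks replicate 3 (0.0639), OA 8 weeks replicate 2 (0.0562) or OA 8 weeks replicate 3 (0.0835). For Ccn6 and Wls the difference between OA and sham in this respect did not pass (adjusted p = 0.379 and 0.478 in limma).

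**Figure D4:**
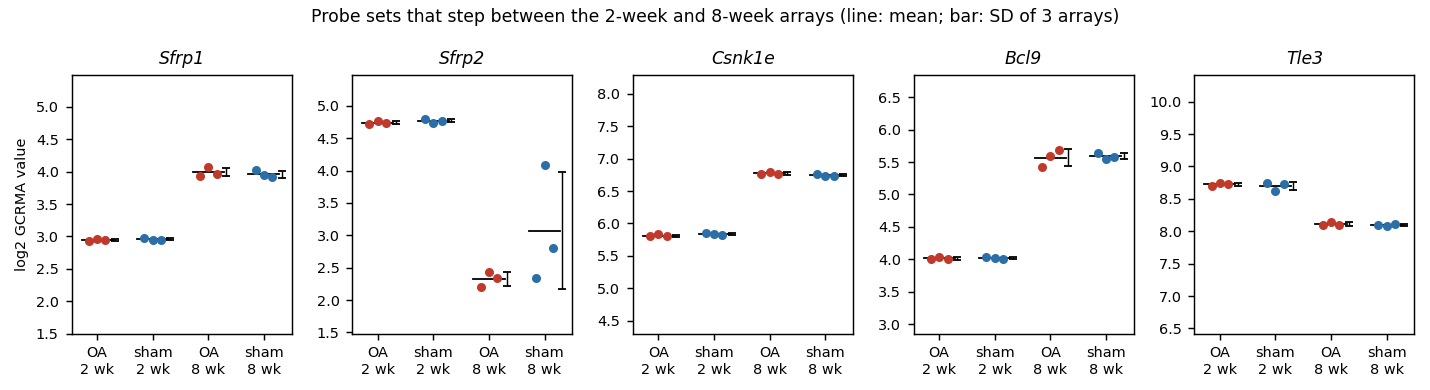
Log2 GCRMA values (vertical axes, each spanning 4 log2 units) of 5 probe sets in the 12 arrays, OA in red and sham in blue at 2 and at 8 weeks (wk), with the mean as a line and the SD of 3 arrays as a bar. Csnk1e lies between 5.80 and 5.85 in all 2-week arrays and between 6.73 and 6.80 in all 8-week arrays, in OA and sham alike.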

How the data were processed

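Log2 values for 31099 probe sets were deposited by the authors, who made them with GCRMA, per the submitters' processing notes. Its version is not given in the sources used here. They were used without further normalization. Per the annotation of the array, 20832 probe sets carried exactly 1 symbol, 436 several and 9831 none, 57 control probe sets among them, and the Entrez IDs of all 10 members matched the RefSeq gene table of GRCr8. Controls were left out, and a log2 value above 4 in 3 or more of the 12 arrays was required, which kept 15934 probe sets and 9247 genes. The main probe set of a gene is the kept one with the highest mean. No 2 arrays were identical, and the mean correlation of an array with its group ranged from 0.973 to 0.988. OA 8 weeks replicate 1 and sham 8 weeks replicate 1 had the lowest. The share of probe sets above log2 4 was 48.2% to 49.8% per array.

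limma 3.58.1 in R 4.3.3 was fitted with 1 mean per group and eBayes (residual degrees of freedom 8, prior 1.94). Calls needed an adjusted p (Benjamini-Hochberg, over all kept probe sets) under 0.05. Errors beside differences are standard errors of this fit. It was tested on simulated data. Other steps used Python 3.11.15, pandas 2.3.3, scipy 1.17.1 and matplotlib 3.10.9. The genes, lists and comparisons were chosen with earlier results of these data known. Besides the members, the rule named, in each comparison of OA with sham at a time and of 8 with 2 weeks, up to 4 called pathway genes in each direction by p, or the 2 with the smallest p where none was called, and the 3 genes most correlated with a member. Of the latter, all 3 are given for Ccn4 and the nearest for the others. The alternatives, given in the closing section, changed the filter, the normalization, the weights, the variance model, the arrays in the fit, the block and a muscle covariate.

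Arrays with the same replicate number in the labels deviated together within a time. Correlations of deviations from the group means were 0.333, 0.36 and 0.527 at 2 weeks and 0.239, 0.237 and 0.119 at 8 weeks. The numbers may thus pair OA with sham arrays of a time, which rests on the values, as the labels do not state it. The reported fit leaves this pairing out, and it was fitted only as an alternative, chosen after seeing the data. There Ccn6 passed at 8 weeks (adjusted p = 0.0333 in limma), as did Ccn4 averaged over both times (0.0468). Between the times the correlations ranged from -0.497 to 0.241, and the numbers were not taken to pair arrays there.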

Additional observations from a re-analysis of the deposited data

How the results depend on the processing

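The count of called members at 8 weeks was 1 in the reported fit and 0 with only the arrays compared or with the muscle covariate, and it ranged from 0 to 1 when each array was left out in turn. The count averaged over both times was 0, and 1 with the replicate block over all arrays or within each time (Ccn4, adjusted p = 0.0352 and 0.0468, the second chosen after seeing the data), and ranged from 0 to 1 with an array left out (1 without OA 2 weeks replicate 3). Between the times within sham it was 1, but 2 with no filter, 0 with the filter at log2 6, where Sfrp2 is not tested, 0 with only the arrays compared, and from 1 to 2 with an array left out (2 without sham 8 weeks replicate 2). Within OA it was 3, but 4 with only the arrays compared and 2 with the filter at log2 6, where Sfrp2 is not tested, and from 2 to 3 with an array left out (2 without OA 2 weeks replicate 1 or 2, where Dkk3 did not pass). The replicate block changed no other member count. Ccn4 at 8 weeks ranged from -1.53 to -1.25 with an array left out. With the muscle covariate the uncalled 8-week difference of Axin2 moved to -1.12 and that of Sfrp2 to -0.09. Signs of uncalled differences near 0 turned. With array weights Axin2 was 0.19 at 8 and 0.10 at 2 weeks, Tcf7l2 0.01 at 8 weeks and Ccn4 0.05 between the times within sham, and Sfrp2 at 2 weeks was 0.01 with equalized medians and 0.03 with the muscle covariate. With an array left out, the range at 8 weeks was -0.81 to 0.67 for Axin2, -0.21 to 0.03 for Tcf7l2, -0.19 to 0.32 for its second probe set, and -0.03 to 0.09 and -0.29 to 0.06 for probe sets 2 and 3 of Ctnnb1. At 2 weeks it was -0.52 to 0.24 for Axin2, -0.02 to 0.44 for Tcf7l2, -0.15 to 0.33 for its second probe set, -0.39 to 0.28 for the second probe set of Ctnnb1 and -0.37 to 0.06 for Ccn4, which ranged from -0.22 to 0.06 between the times within sham. Ccn6 passed at 8 weeks under 8 of the 11 alternatives that left out no replicate, and without OA 8 weeks replicate 3 (0.0149). Precision is limited by 3 arrays per group, and values near log2 4 give no sizes.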
